A study of Mus musculus with 5 samples.

Results

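Zic1, Zic2, Zic4 and Zic5 are autosomal members of the mouse Zic family, and their H3K27me3 peaks were read in mouse embryonic fibroblasts (MEFs) that expressed inhibitors of Polycomb Repressive Complex 2 (PRC2). The genes were chosen by name, as 4 of the 22350 protein-coding genes that the GENCODE annotation (release M1) places on chromosomes 1 to 19 and X of the mm9 (NCBIM37) genome. They lie as 2 opposed pairs, Zic1 with Zic4 on chromosome 9 and Zic5 with Zic2 on chromosome 14. Genes of a pair lay under the same peak in every list, so the 4 genes give 2 loci and not 4 independent observations.

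The series profiled H3K27me3 by chromatin immunoprecipitation and sequencing (ChIP-Seq) in 5 samples with 1 library each, and peak lists of 3 of them were analyzed here. All MEFs came from an embryo whose Eed gene, which encodes a PRC2 subunit, carried loxP sites, and the labels call the parental cells floxed for Eed. By the study's methods, cells were transduced with lentivirus from an EF1a promoter vector and selected with puromycin, to express the histone variant H3.3 with lysine 27 changed to arginine (the K27R library), H3.3 with methionine in that place (K27M), or human EZHIP (EZHIP). The untransduced parental cells and a line with Eed deleted, a single clone by the labels, were profiled too and are not analyzed here. K27M is the oncohistone of diffuse midline gliomas and EZHIP the protein expressed in posterior fossa type A ependymomas, and both inhibit PRC2. The K27R mutant does not, and its list served as the reference. A transduced line expresses its transgene beside the normal histone genes of the cell, and each group is 1 line in culture.

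The K27R list held 12845 peaks with a median width of 16.0 kb, the K27M list 3736 peaks with a median of 6.8 kb, and the EZHIP list 4992 peaks with a median of 4.4 kb. Each peak is a start and an end on a grid of 200 bp bins, without height, score or read count. Depth is therefore unknown, the amount of H3K27me3 inside a peak cannot be compared, and with 1 library per group no difference could be tested against replicate error. All values below describe these 3 libraries. The position of a peak's edge depends on the read depth and on how the caller joined neighboring bins, and the part of either in the results was not tested. The shortest gap between neighboring peaks was 5200 bp in the K27M list, 1200 bp in the EZHIP list and 0 bp in the K27R list, so that short gaps like those between EZHIP peaks occurred nowhere in the K27M list. The study's methods give a single maximum gap for these calls, longer than each of these shortest gaps. The lists may not all have been called with the same settings. Differences between the lists in peak length, gaps and share of a region, also those against K27R, cannot be told apart from such a difference in calling.

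ZIC proteins are transcription factors with C2H2 zinc fingers related to those of the GLI and GLIS families. They act early in the neural plate border, the dorsal neural tube, the neural crest and the developing cerebellum. Loss of ZIC2 function causes holoprosencephaly in humans and mice, and deletion of ZIC1 together with ZIC4 is linked to Dandy-Walker malformation. In cells of other lineages such developmental regulators are typical Polycomb targets. PRC2 is recruited to CpG islands that are not transcribed, trimethylates lysine 27 of histone H3 there, and spreads the mark outward when the EED subunit binds H3K27me3 and activates the enzyme.

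The 300 bases that precede each gene's start site are shown because CG content is the feature by which stretches with and without residual peaks are compared further on, and 1 stretch of each locus that no K27M or EZHIP peak covered is shown for contrast. All were read from the mm9 genome, 5′ to 3′ on the strand of the gene, with every CG dinucleotide in capitals. The Zic1 stretch is at chr9:91260649-91260948 on the minus strand and lies in an intron of the overlapping Zic4 record. The Zic4 stretch, chr9:91256951-91257250 on the plus strand, lies in an intron of Zic1. The Zic5 stretch, chr14:122864900-122865199 on the minus strand, and the Zic2 stretch, chr14:122874304-122874603 on the plus strand, are intergenic.
Zic1: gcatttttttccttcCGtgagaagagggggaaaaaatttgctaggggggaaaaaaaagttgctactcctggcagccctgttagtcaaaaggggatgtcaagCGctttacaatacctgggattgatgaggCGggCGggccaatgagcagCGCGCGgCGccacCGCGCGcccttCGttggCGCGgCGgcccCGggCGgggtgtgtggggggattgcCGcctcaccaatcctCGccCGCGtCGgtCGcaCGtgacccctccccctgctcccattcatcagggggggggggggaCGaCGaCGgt
Zic4: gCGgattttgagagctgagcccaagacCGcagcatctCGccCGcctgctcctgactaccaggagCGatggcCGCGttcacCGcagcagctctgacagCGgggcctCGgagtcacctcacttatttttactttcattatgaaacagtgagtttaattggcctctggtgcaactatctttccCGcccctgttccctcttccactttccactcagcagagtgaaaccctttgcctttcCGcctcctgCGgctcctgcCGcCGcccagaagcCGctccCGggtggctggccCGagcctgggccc
Zic5: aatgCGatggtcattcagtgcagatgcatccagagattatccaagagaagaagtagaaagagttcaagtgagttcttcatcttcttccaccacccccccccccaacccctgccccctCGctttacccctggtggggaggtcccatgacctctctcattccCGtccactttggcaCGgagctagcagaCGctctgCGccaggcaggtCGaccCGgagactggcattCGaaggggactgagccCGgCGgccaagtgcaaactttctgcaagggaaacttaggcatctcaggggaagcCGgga
Zic2: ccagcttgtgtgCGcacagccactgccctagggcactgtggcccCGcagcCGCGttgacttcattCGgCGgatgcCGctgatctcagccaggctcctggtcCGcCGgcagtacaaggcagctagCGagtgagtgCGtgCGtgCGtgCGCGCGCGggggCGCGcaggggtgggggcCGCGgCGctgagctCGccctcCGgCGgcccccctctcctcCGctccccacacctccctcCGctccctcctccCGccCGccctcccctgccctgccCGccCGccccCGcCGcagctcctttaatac
These 4 stretches hold 27, 18, 12 and 33 CG in the order printed. Each touches a CpG island and lies wholly inside a peak of all 3 lists. The same 300-base window before all 22350 protein-coding start sites held a median of 9 CG (quartiles 3 to 20), and 93.9% of the windows held at least 1. As many CG as before Zic2 stood in 7.31% of all windows, as many as before Zic1 in 13.6%, as before Zic4 in 30.1% and as before Zic5 in 44.5%. Among the genes whose start site lay in peaks of all 3 lists the median was 15 CG (quartiles 8 to 25), so that Zic1, Zic4 and Zic2 lay above that median and Zic5 below it.

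The contrast sequences are the middle of the longest stretch of each locus that was inside the K27R peak and outside every K27M and EZHIP peak. Near Zic1 and Zic4 this is chr9:91225051-91225350, and near Zic2 and Zic5 it is chr14:122822751-122823050, both intergenic and printed on the plus strand.
Zic1-Zic4 edge: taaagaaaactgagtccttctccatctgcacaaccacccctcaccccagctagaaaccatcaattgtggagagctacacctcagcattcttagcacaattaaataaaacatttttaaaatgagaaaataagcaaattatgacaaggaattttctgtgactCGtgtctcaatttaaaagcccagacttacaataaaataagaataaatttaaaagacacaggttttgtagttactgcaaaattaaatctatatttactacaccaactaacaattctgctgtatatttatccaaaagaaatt
Zic2-Zic5 edge: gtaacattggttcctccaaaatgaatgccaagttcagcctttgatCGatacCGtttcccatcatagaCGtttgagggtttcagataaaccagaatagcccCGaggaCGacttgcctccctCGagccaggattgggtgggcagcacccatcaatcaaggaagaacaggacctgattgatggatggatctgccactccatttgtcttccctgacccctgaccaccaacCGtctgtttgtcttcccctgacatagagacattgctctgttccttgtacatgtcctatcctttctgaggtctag
The first holds 1 CG at 32.0% G+C and the second 7 CG at 49.3% G+C, against 57.3% to 74.0% G+C in the 4 stretches before the genes. Neither touches a CpG island. The gene stretches were taken at start sites that lie in islands, so this contrast is one of chosen examples. Stretches with and without residual peaks are compared whole further on.

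The comparison at start sites asked whether the Zic genes, marked by H3K27me3 in the K27R cells, still carried a peak in cells expressing K27M or EZHIP. All 4 did. The start site of Zic1, Zic2, Zic4 and Zic5 lay in a K27R peak, as did that of 30.1% of all protein-coding genes. All 4 also lay in K27M peaks, where the share of all genes was 9.02%, and in EZHIP peaks, where it was 7.73%. A start in peaks of all 3 lists was found for 6.6% of all genes. Among the 6735 genes with a start site in a K27R peak, 21.9% kept a peak over it in both other lists.

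Genes with a CpG island at the start form a closer background. The 5′ end of each of the 4 Zic gene records lay in a CpG island found in the mm9 sequence. For Zic4 that end is the start of transcript Zic4-002, which lies inside Zic1, while transcript Zic4-001 starts outside any island. A start in an island was in a K27R peak for 23.1% of 10252 such genes. Of the 2368 genes with both an island and a K27R peak over the start, 39.5% kept a peak in the K27M and EZHIP lists, as all 4 Zic genes did.

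The peaks covered the genes whole, not only their promoters. Every base of the 4 gene bodies lay in a peak in all 3 lists. Zic1, at chr9:91252896-91260648 on the minus strand, is annotated with 3 transcripts and 4 exons after overlapping exons are merged. Zic4, at chr9:91257251-91284186 on the plus strand, is the longest at 26936 bp, with 12 transcripts and 11 merged exons. Zic2, at chr14:122874604-122879074 on the plus strand, has 3 transcripts and 3 merged exons in 4471 bp. Zic5, at chr14:122856017-122864899 on the minus strand, has 2 transcripts and 3 merged exons in 8883 bp. All of these exons and the start of every one of the transcripts lay in peaks of the 3 lists, also where the transcript did not begin in an island. An island held 2 of the 3 Zic1 starts, 2 of the 12 Zic4 starts, 2 of the 3 Zic2 starts and 1 of the 2 Zic5 starts.

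At the Zic1-Zic4 locus a single K27R peak of 130.4 kb, chr9:91210801-91341200, spanned both genes. In the K27M list a single peak of 79.2 kb remained, chr9:91239601-91318800. The EZHIP list held a main peak of 63.0 kb over both genes, chr9:91243401-91306400, and 2 small peaks to its right of 3.4 kb and 2.0 kb, separated by gaps of 1800 and 3200 bp. All of these lay inside the K27R peak, and all 3 EZHIP peaks lay inside the K27M peak. K27M peaks thus covered 60.7% of the K27R region and EZHIP peaks 52.5%.

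**Figure D1:**
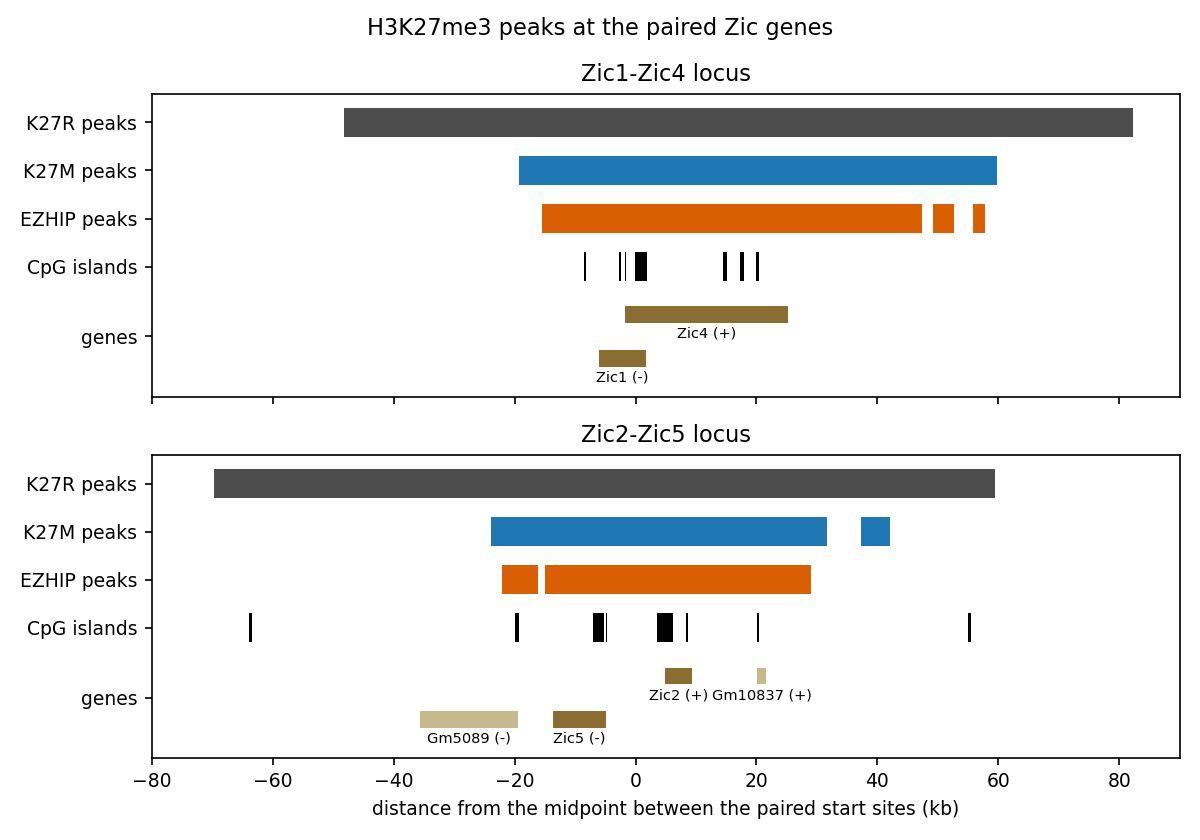
H3K27me3 peaks of the K27R, K27M and EZHIP libraries, CpG islands and the protein-coding genes that start in the region, along the Zic1-Zic4 (top) and Zic2-Zic5 (bottom) loci, with distance in kb from the midpoint between the paired start sites, and strands in parentheses. In each locus the K27M and EZHIP peaks lie inside the single K27R peak, lose length on both sides of it, and still cover the Zic genes whole.

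The length lost lay at both ends of the Zic1-Zic4 region. K27M peaks began 28.8 kb inside its left edge and ended 22.4 kb inside its right edge. EZHIP peaks began 32.6 kb inside the left edge and ended 24.4 kb inside the right one, with 5.0 kb more lost in the inner gaps. The left edges of the K27M and EZHIP sets were 3.8 kb apart and their right edges 2.0 kb apart, while each was at least 22.4 kb from the K27R edge. What was kept reached farther on the side of Zic4 than on that of Zic1. Measured from the midpoint between the start sites, K27M peaks reached 19.3 kb to the left and 59.9 kb to the right, against 48.1 and 82.3 kb in K27R cells. EZHIP peaks reached 15.5 and 57.9 kb.

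At the Zic2-Zic5 locus the K27R peak was about as long, 129.2 kb at chr14:122800001-122929200, and the residual peaks were shorter. The K27M list held a peak of 55.6 kb over both genes, chr14:122845801-122901400, and, after a gap of 5600 bp, a peak of 4.8 kb. The EZHIP list held a peak of 44.0 kb over both genes, chr14:122854801-122898800, and, 1200 bp to its left, a peak of 6.0 kb. Together K27M peaks covered 46.7% of the K27R region and EZHIP peaks 38.7%, less than at Zic1-Zic4 in either list. The EZHIP peaks again lay wholly inside K27M peaks.

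Here the loss was uneven in both lists. K27M peaks began 45.8 kb inside the left edge of the region, on the side of Zic5, and ended 17.4 kb inside the right edge. EZHIP peaks began 47.6 kb inside the left edge and ended 30.4 kb inside the right edge. The left edges of the inhibitor sets were 1.8 kb apart and the right edges 13.0 kb apart, since the small K27M peak on the right had no EZHIP counterpart. From the midpoint, the reach to the left fell from 69.8 kb in K27R cells to 24.0 kb with K27M and 22.2 kb with EZHIP. To the right the reach was 59.4, 42.0 and 29.0 kb in that order.

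Within a region, bases in an EZHIP peak were always in a K27M peak, while the reverse did not hold. At Zic1-Zic4, 68.4 kb were shared, 10.8 kb were in K27M peaks alone and 0 kb in EZHIP peaks alone, so that 86.4% of the K27M length was shared. At Zic2-Zic5, 50 kb were shared, 10.4 kb were in K27M peaks alone and 0 kb in EZHIP peaks alone, which gave 82.8%. K27M peaks covered 1.16 times the EZHIP length at Zic1-Zic4 and 1.21 times at Zic2-Zic5.

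A window of fixed size lets the loci be read against other genes whatever the number of peaks. In the 100 kb centered between the paired start sites, the Zic1-Zic4 locus was covered to 98.1% by K27R peaks, 69.3% by K27M peaks and 63.7% by EZHIP peaks. The Zic2-Zic5 window was covered to 100%, 60.4% and 50%. In K27R cells this cover was common. For the 6735 genes with a start site in a K27R peak the median window was covered to 71.6% (quartiles 48.2% to 100%), and 26.3% of them had as much cover as Zic1-Zic4.

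With the inhibitors the loci stood higher among the same genes. Their median cover was 1.47% in the K27M list (quartiles 0% to 12%) and 1.2% in the EZHIP list (quartiles 0% to 9.26%). As much K27M cover as at Zic1-Zic4 was found at 2.09% of these genes and as much as at Zic2-Zic5 at 3.27%. For EZHIP the shares were 1.44% and 3.06%. Among the 2368 of these genes with an island over the start, median cover was 6.50% for K27M and 5% for EZHIP. There the shares were 2.83% and 4.81% for K27M, and 1.48% and 3.89% for EZHIP. Against the 1476 genes with a start site in peaks of all 3 lists, where medians were 17.2% for K27M and 13.2% for EZHIP, the loci stood less far out. There 5.96% of genes had as much K27M cover as Zic1-Zic4 and 9.96% as much as Zic2-Zic5, and for EZHIP 5.69% and 11.2%.

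Peak widths gave the same order. Among peaks over start sites, the K27R peaks over the Zic genes were of ordinary width. The median over the 6735 start sites in K27R peaks was 96.8 kb (quartiles 39.6 to 223.4 kb), and 41.6% of them lay in a peak as wide as that of Zic1-Zic4. The K27M peaks over start sites had a median of 11.8 kb (quartiles 6.2 to 27.7 kb, n = 2015 genes). A peak as wide as the 79.2 kb over Zic1 and Zic4 covered 6.80% of these start sites, and one as wide as the 55.6 kb over Zic2 and Zic5 covered 10.3%. The EZHIP peaks over start sites had a median of 8.4 kb (quartiles 5.0 to 15.6 kb, n = 1728 genes), and the shares were 2.20% for the 63.0 kb peak and 5.56% for the 44.0 kb peak. Counted once per peak, the K27R peaks were wide too. Among all 12845 K27R peaks, 8.15% were as wide as that of Zic1-Zic4 and 8.22% as wide as that of Zic2-Zic5. In the K27M list these shares were 1.71% and 3.24%, and in the EZHIP list 0.421% and 1.26%. Among all 4992 EZHIP peaks the one over Zic1 and Zic4 ranked 20th by width, level with 1 other, and the one over Zic2 and Zic5 ranked 62nd.

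**Figure D2:**
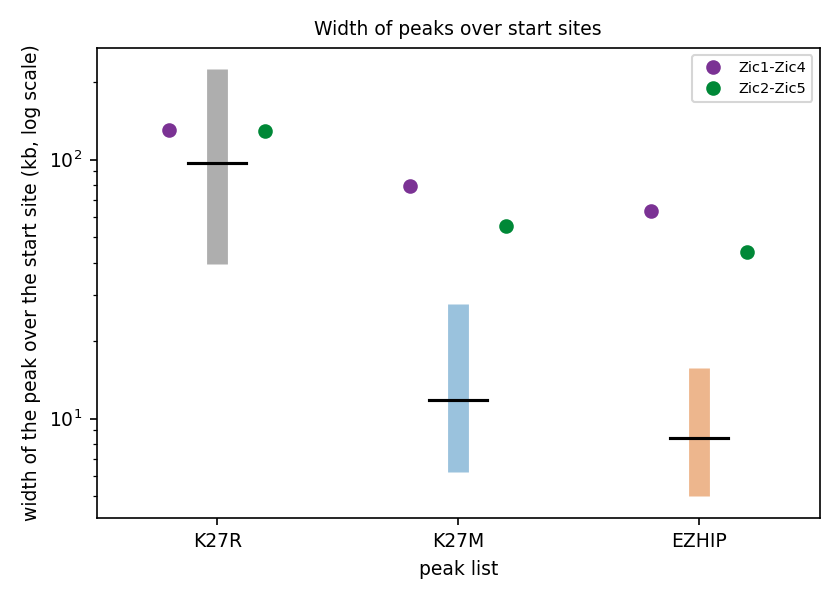
Width in kb (log scale) of the peak over protein-coding start sites in the K27R, K27M and EZHIP lists, with boxes for the quartiles and black lines for the median over genes, and points for the peaks over the Zic1-Zic4 and Zic2-Zic5 loci. The points lie inside the K27R box and above the boxes of the K27M and EZHIP lists.

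To compare regions of like size, the 848 autosomal K27R regions of 100 to 200 kb were taken, which include both Zic loci. A K27M peak overlapped 55.1% of them and an EZHIP peak 60.3%. The median share of a region that was kept was 2.16% with K27M and 2.97% with EZHIP, and 10.6% and 7.73% over regions with a peak. By this share Zic1-Zic4 ranked 27th for K27M and 22nd for EZHIP, and Zic2-Zic5 ranked 47th and 39th. At least 50% of the region was kept in both lists at 20 of the 848 regions, Zic1-Zic4 among them, while 295 had no peak in either list. Other regions therefore kept as much as the Zic loci or more, and no test sets the Zic loci apart from them.

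CpG islands were dense at both loci, and the kept stretches held nearly all of them. The Zic1-Zic4 region contained 7 islands of 256 to 1908 bp, and all 7 lay wholly in K27M and in EZHIP peaks. The longest, chr9:91258912-91260819, overlaps the Zic1 start site and holds 158 CG. The Zic2-Zic5 region contained 8 islands of 251 to 2706 bp, of which 6 lay wholly in peaks of both inhibitor lists. Its longest, chr14:122873231-122875936 with 257 CG, overlaps the Zic2 start site, and the next, chr14:122862652-122864508 with 199 CG, lies inside Zic5.

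The exceptions were 2 islands near the outer ends of the Zic2-Zic5 region. An island of 612 bp at chr14:122805750-122806361, with 56 CG, and another of 530 bp at chr14:122924677-122925206, with 47 CG, were inside the K27R peak and outside all K27M and EZHIP peaks. These were not the shortest islands of the region, since kept islands there were as short as 251 bp. Not every island of the region was thus under a residual peak.

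CG density followed the same layout. At Zic1-Zic4 the stretch kept in both lists held 19.6 CG per kb, the stretch kept with K27M alone 4.81 and the stretch lost in both 5.43, against 12.8 over the whole region. At Zic2-Zic5 these densities were 26.2, 8.08 and 10.3 CG per kb, against 16.3 over the whole. The stretches in K27M peaks alone were thus no richer in CG than those lost in both lists. G+C content differed less, at 44.7% in the shared and 37.6% in the lost stretch of Zic1-Zic4, and at 47.0% and 43.9% at Zic2-Zic5. Most islands lay near the genes, apart from the 2 at the outer ends of the Zic2-Zic5 region, and whether CG density or distance from the genes goes more closely with the kept peaks was not tested.

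**Figure D3:**
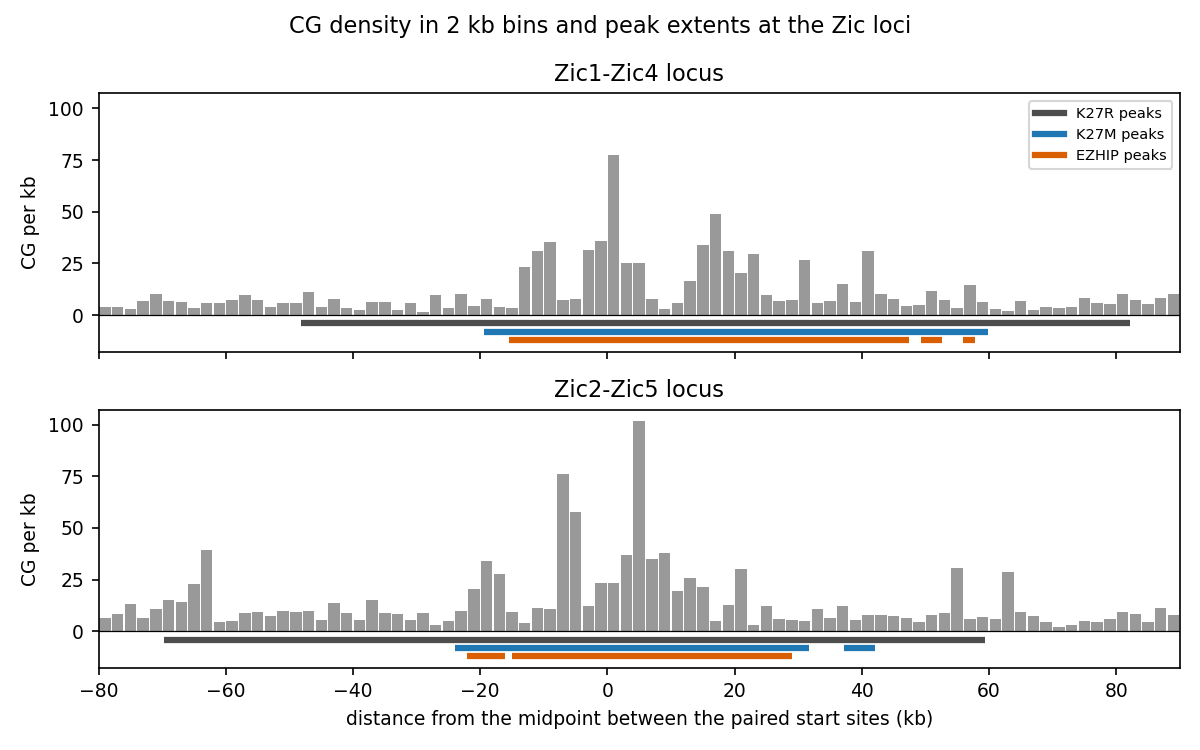
CG dinucleotides per kb in bins of 2 kb (gray bars) along the Zic1-Zic4 (top) and Zic2-Zic5 (bottom) loci, by distance in kb from the midpoint between the paired start sites, with the extent of K27R, K27M and EZHIP peaks as lines under the bars. Most bins of high density lie over the K27M and EZHIP peaks, and the islands outside them at Zic2-Zic5 appear as high bins near each end of the K27R peak.

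Among the 848 autosomal regions of 100 to 200 kb, the number of islands and the share kept moved together. The 276 regions without an island kept a median of 0% in both lists, and the 388 regions with 1 or 2 islands kept 3.88% with K27M and 4.02% with EZHIP. With 3 to 5 islands (141 regions) the medians were 14.5% and 12.9%, and with 6 to 9 islands (37 regions) they were 38.6% and 35%. The Zic loci, with 7 and 8 islands, belong to that last class and kept more than its median in both lists. The 6 regions with 10 or more islands had lower medians, of 33.3% and 19.6%, so that the order did not go on beyond it. These are medians over regions of single libraries, given as a description.

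**Figure D4:**
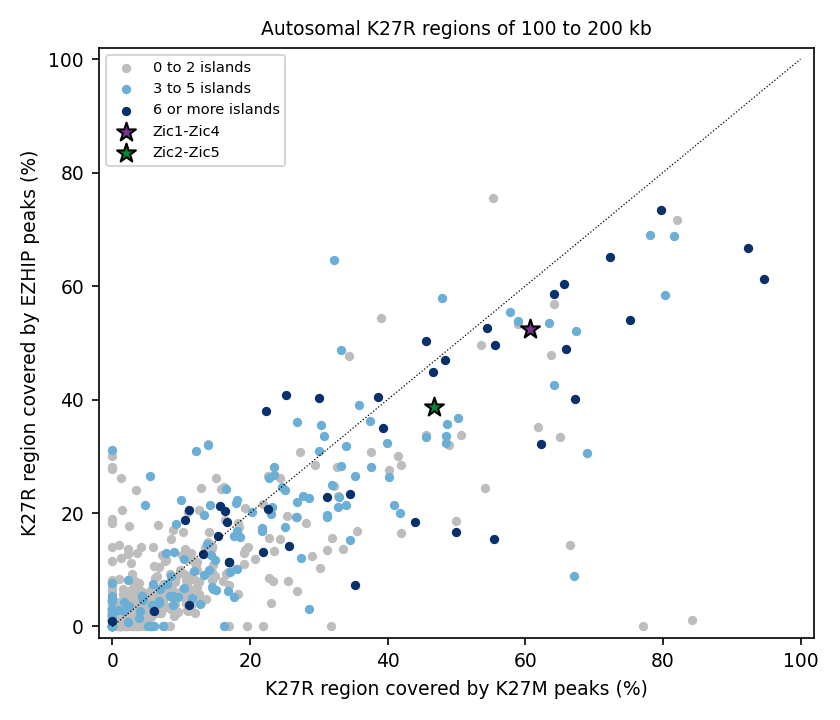
Percent of each autosomal K27R region of 100 to 200 kb (n = 848, 1 point each) covered by K27M peaks (horizontal axis) and by EZHIP peaks (vertical axis), colored by the number of CpG islands in the region, with stars for the Zic loci and a dotted line of equality. Zic1-Zic4 lies at 60.7% and 52.5% and Zic2-Zic5 at 46.7% and 38.7%, both among regions with 6 or more islands and below the line.

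The genes of each pair lie on opposite strands and are transcribed away from each other. The Zic5 and Zic2 records are separated, with start sites 9705 bp apart. The Zic1 and Zic4 records overlap by 3398 bp, because the Zic4 record begins inside Zic1. Their first-listed transcripts, Zic1-001 and Zic4-001, start 3202 bp apart with no overlap. For a background, the genome was searched for divergent pairs, protein-coding genes on opposite strands with start sites at most 20 kb apart and bodies that do not overlap. This definition takes in Zic5 with Zic2 and leaves out Zic1 with Zic4.

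Of the 3091 divergent pairs, 16.2% had both start sites in K27R peaks. Among those 500 pairs, K27M peaks held both start sites of 80 pairs, a single start site of 91 and neither of 329. EZHIP peaks held both start sites of 53 pairs, a single start site of 105 and neither of 342. Only 9.2% of the 500 kept both start sites in both lists, and Zic5 with Zic2 is among these 46 pairs. A single start site was thus held more often than both, narrowly with K27M (91 against 80 pairs) and more clearly with EZHIP (105 against 53). Both Zic pairs had both start sites under the same peak, but Zic1 with Zic4 lies outside this background. Whether the start sites of the other pairs shared a peak was not counted.

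Other genes near the loci shared the peaks at Zic2-Zic5 but were absent at Zic1-Zic4. No further protein-coding start site lay in the Zic1-Zic4 K27R region. The nearest protein-coding genes there are Tbc1d2b, 1087 kb to the left, and Plscr1, a phospholipid scramblase, 861 kb to the right, and neither start site lay in a peak of any list. In the Zic2-Zic5 region the start sites of the predicted genes Gm5089, 5.68 kb from Zic5, and Gm10837, 10.7 kb from Zic2, lay in peaks of all 3 lists. The long noncoding RNA gene 2610035F20Rik, at chr14:122869506-122872801 between Zic5 and Zic2, was covered whole in all 3 lists.

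The flanks of the Zic2-Zic5 region hold genes that were looked at after the peak positions were known. Clybl, a mitochondrial lyase gene, ends 1.45 kb inside the left edge of the region, and its start site lay in no peak, although 49.3 kb of its body lay in K27R peaks. Pcca, which encodes a subunit of propionyl-CoA carboxylase, starts 4.35 kb beyond the right edge, and its start site lay in no peak either. The Zic2-Zic5 region in K27R cells thus overlapped the last 1.45 kb of Clybl and ended 4.35 kb short of Pcca. More of the Clybl body lay in K27R peaks outside the region. The K27M and EZHIP peaks of the region did not reach Clybl. They ended farther from Pcca, which follows from their place inside the region.

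The genes whose windows were most like those of the Zic loci were found by the Euclidean distance over the 3 cover values, in percentage points, among genes at least 1 Mb away. For Zic1-Zic4 they were Neurod2, a transcription factor of neuronal differentiation, at a distance of 1.63, Slc22a12, a renal urate transporter, at 3.70, and Slc5a1, a sodium-glucose transporter, at 3.95. Neurod2 was covered to 96.6% in K27R, 69.6% in K27M and 64.0% in EZHIP cells. The window of Slc22a12 was covered to 66.6% and 65.4% with the inhibitors although its own start site lay in neither residual peak set. For Zic2-Zic5 they were Aym1 at 0.755, Gata5, a zinc finger factor of heart and gut development, at 2.61, and H2-Q7, a nonclassical MHC class I gene, at 2.97. H2-Q7 has near-identical neighbors, so that reads there could have been placed on several genes. The likeness is over 3 values per gene, 1 from each library.

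The GLI and GLIS relatives of the autosomal Zic genes were close to the background of all genes. Of the 6, 2 had a start site in a K27R peak, 0 in a K27M peak and 0 in an EZHIP peak, beside 30.1%, 9.02% and 7.73% of all genes, and so small a list cannot be told from those shares. All 6 had a start in a CpG island. Their median window was covered to 11% in K27R cells and 0% with either inhibitor, against medians over all genes of 14.8%, 0% and 0%. Gli1, an effector and target of Hedgehog signaling, lay in a K27R peak of 64.4 kb and lost it at the start site, with 5.6% of its window covered by K27M peaks and 4.2% by EZHIP peaks. Glis1 lay in a K27R peak of 6.0 kb and its window held no residual peak. Gli2, the main Hedgehog activator, and Glis3 had K27R peaks in 38.8% and 8.6% of their windows but not at the start site, and no residual peak. Gli3, the main Hedgehog repressor, and Glis2 had no peak in the window in any list.

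Genes that act with Zic factors in the neural plate border and dorsal neural tube had residual peaks at most of their start sites. Of 15 listed genes, 14 were analyzed. The other, Tfap2a, was missed because the annotation names it Tcfap2a. Its start site lay in peaks of all 3 lists, and it is not in the counts and medians here. Of the 14, 13 had a start site in a K27R peak, 13 in a K27M peak and 11 in an EZHIP peak. The shares of all genes were 30.1%, 9.02% and 7.73%. The windows of these 14 genes were covered to medians of 82.0%, 33.7% and 16.7%. Pax7, a paired-box factor of the dorsal neural tube and neural crest, was covered to 100%, 82.2% and 59.0% in K27R, K27M and EZHIP cells, and Wnt3a, a dorsal midline Wnt ligand, to 77.4%, 65.4% and 56.4%. Pax3, which with Zic1 specifies the neural crest, kept 38.6% of its window in K27M peaks and had no EZHIP peak. Snai2, a neural crest factor that fibroblasts also express, had no peak over the start site in any list. The Zic1-Zic4 and Zic2-Zic5 windows had more cover than the median of this list in all 3 libraries. The list was drawn up with earlier results of these data known, and no test was made of it.

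**Figure D5:**
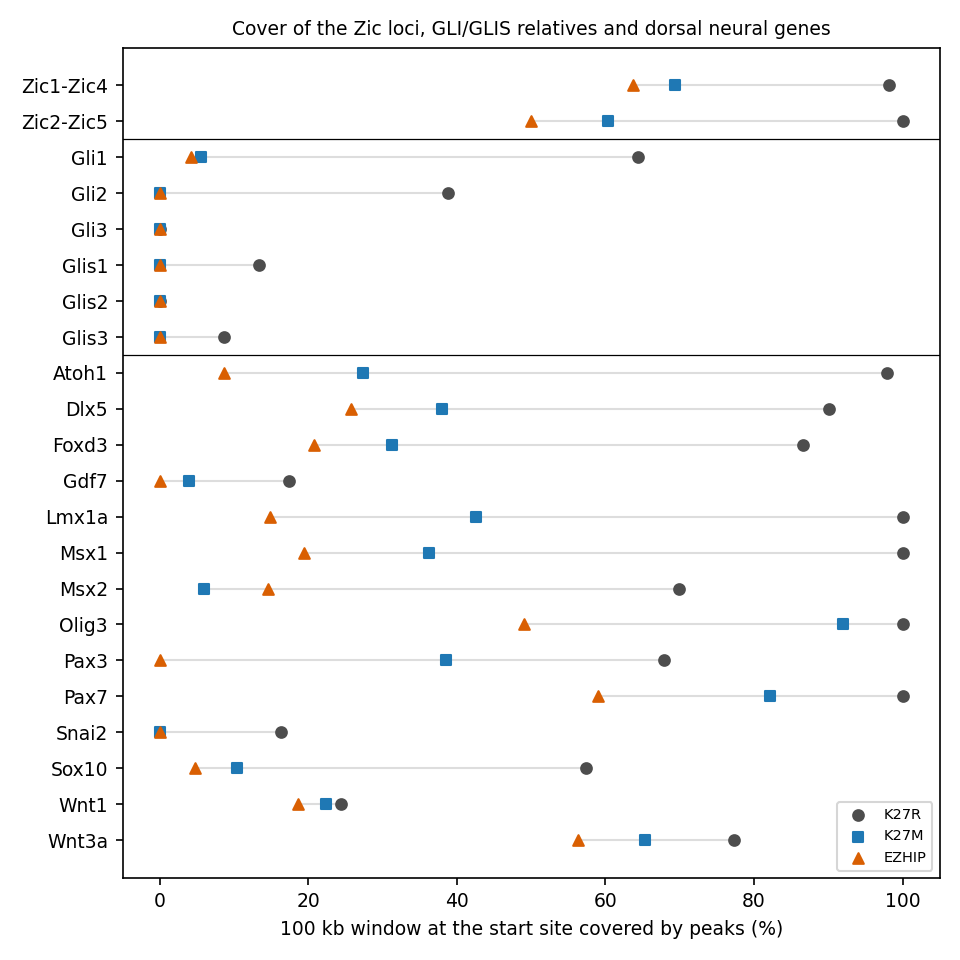
Percent of the 100 kb window at the start site covered by K27R (circles), K27M (squares) and EZHIP (triangles) peaks for the Zic loci (top), their GLI and GLIS relatives (middle) and neural plate border and dorsal neural tube genes (bottom), 1 library per symbol. The Zic loci lie at 60.4% or more with K27M and 50% or more with EZHIP, while the GLI and GLIS genes lie at 5.6% or less with either.

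Marker genes were read in the same way, since peak lists hold no expression by which the cell type could be checked. Of 11 fibroblast markers 1 had a start site in a peak, Pdgfra, a receptor of platelet-derived growth factor, and it did so in all 3 lists. That count is near the share of all genes in the K27M and EZHIP lists (9.02% and 7.73%) and under it in the K27R list (30.1%), so that it tells little about the cell type. A peak anywhere in the 100 kb window was found for 5 of the 11 in the K27R list, 2 in the K27M list and 2 in the EZHIP list. Of all 22350 genes, 14301, 5441 and 5643 had such a peak in the same lists. So few markers cannot be told from those shares. Twist1, a mesenchymal transcription factor, had residual peaks in its window away from the start site, at 6.0% with K27M and 3.4% with EZHIP. All 5 neural markers analyzed, of 6 listed, had a start site in a peak of each list, beside 30.1%, 9.02% and 7.73% of all genes. Their windows were covered to medians of 78.3%, 40.2% and 37.8% by K27R, K27M and EZHIP peaks, against 14.8%, 0% and 0% over all genes. All 5 start in a CpG island, as do 2 of the 11 fibroblast markers and 10252 of all 22350 genes. The marker lists thus differ in islands as well as in cell type, and the part of each was not tested. Whether transcription of Zic1, Zic2, Zic4 or Zic5 differed between the cells was not measured in these files.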

How the data were processed

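H3K27me3 ChIP-Seq peak lists of 3 MEF libraries (K27R, K27M and EZHIP, 1 per group, grouped by their titles) were analyzed. By the labels and the study's methods, crosslinked chromatin was digested with MNase and precipitated with an H3K27me3 antibody, with chromatin of another species added as a reference. Reads were aligned by the authors to mm9 with Bowtie, which the submitters' processing notes give as version 1.0.0 (the notes also name deepTools), and broad peaks were called with MOSAiCS-HMM. Lists were made per library and not pooled. Whether the reference scaling entered the calls, and which background library was used, is not given in the sources used here. The deposited values are peak positions only (chromosome, start and end), so that no count or signal could be used and depth is unknown. The number of peaks a library yields depends on that depth. Peaks were taken as whole 200 bp bins and printed counting from 1.

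Positions were set against the NCBIM37 sequence and GENCODE M1, the build of the files. The start site was the 5′ end of the gene record, and a gene had a peak when that base lay in it. CpG islands were the best-scoring segments under a score of 17 for each CG and -1 for any other base, kept where G+C was 50% or more, the observed to expected CpG ratio exceeded 0.6 and the length exceeded 200 bp (26796 islands, repeats not masked). Python 3.11.15, numpy 2.4.6, pandas 2.3.3, scipy 1.17.1 and matplotlib 3.10.9 were used, and interval and island tools were tested on simulated data. Shares of genes and ranks describe these libraries, and no test was possible without replicates. Alternatives were other definitions of the start site, windows of 50 and 200 kb or the span of the pair, minimum peak widths of 2000 and 5000 bp, and merging of peaks up to 10000 bp apart.

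The named genes were the 4 members, the genes of lists of relatives, neural plate border genes and markers (values for the GLI and GLIS genes and at most 4 of any other list), the nearest protein-coding gene on each side of a pair, those starting in its K27R region, and the 3 genes per pair with the most similar window cover at least 1 Mb away. The members and lists were chosen with earlier results of these data known. Promoter sequences were read from the NCBIM37 genome and not from the RefSeq table, whose build differs. A further gene of the list of relatives is not reported here.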

Additional observations from a re-analysis of the deposited data

How the results depend on the processing

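The count of 4 of 4 Zic start sites in K27R, K27M and EZHIP peaks was 4 under every alternative run (start of any transcript, a peak within 5000 bp, peaks of at least 2000 or 5000 bp, and merging of peaks up to 10000 bp apart). None of these could have lowered it. Other starts, added distance and merging can only add hits, and the narrowest peak over a Zic start site was 44.0 kb wide. The unchanged count therefore says nothing about how stable it is. Of 53 alternative values, 31 stayed within the exact 95% binomial (Clopper-Pearson) interval of the reported value over 200 bp bins and 22 left it, most by construction because the window was larger or smaller. In windows of 50 kb K27R peaks covered 100% of the Zic1-Zic4 locus, K27M peaks 88.7% and EZHIP peaks 81.1%, and in windows of 200 kb it was 65.2%, 39.6% and 34.2%. For Zic2-Zic5 the 50 kb cover was 97.9% with K27M and 91.9% with EZHIP, and the 200 kb cover was 69.0%, 30.2% and 25%. Over the span of the pair cover was 100% in all 3 lists at both loci. For Zic2-Zic5, K27M cover was 55.6% with peaks of at least 5000 bp and 66% after merging. The share of K27M and EZHIP cover in common was 91.9% in the Zic1-Zic4 window and became 86.4% in 200 kb. At Zic2-Zic5 it was 82.8% and became 93.9% in 50 kb, 77.6% after merging and 89.9% with peaks of at least 5000 bp. K27R cover was higher than or equal to K27M cover, and K27M cover higher than or equal to EZHIP cover, at both loci in each of these settings. No paired analysis was possible because each group has 1 library and no result comes from a test. The intervals cover counting of bins only and treat the bins as independent, although neighboring bins belong to the same peaks. They served as a yardstick for change and do not measure how stable a value is. Depth, replicate spread and the amount of H3K27me3 within peaks could not be assessed from positions.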
